A study of Mus musculus with 4 samples.

Results

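Low-Malat1 barcodes with marginal RNA were droplets of the scRNA-Seq dataset that held the transcripts of SV marginal cells and little of the nuclear RNA Malat1. They were chosen by their raw UMI counts. A barcode needed at least 200 genes, Malat1 under 0.7% of its UMIs, at least 3 UMIs of Kcne1, more UMIs of Kcne1 than of Met, Kcnj13, Nrp2 and Mlana together, and Hbb-bs and Hba-a1 together under 1% of its UMIs. The rule found 158 of the 3330 barcodes in the 3 cell captures, with 18 in capture 1, 94 in capture 2 and 46 in capture 3. Malat1 and Kcne1 chose them, so the levels of these genes are given as a description only.

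The series comprised 3 captures of whole cells and 1 capture of nuclei from the stria vascularis (SV) of wild-type CBA/J mice at postnatal day 30, with no treatment. Several mice were pooled into the suspension of each capture. The replicate is therefore the capture, not the barcode. The p-values of gene tests rest on how far differences between sets of barcodes vary over captures, with shifts common to a capture taken out. Capture 1 held 392 barcodes with 2811309 UMIs, capture 2 held 1358 with 8113494 and capture 3 held 1580 with 8340882, and the median depth per barcode was 5054, 4938 and 3878 UMIs. A UMI is a random tag that marks a single captured RNA molecule.

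The SV lines the lateral wall of the cochlea, and its marginal cells face the endolymph, into which they secrete potassium through the KCNQ1 and KCNE1 channel. The potassium is loaded into the cell across a folded basolateral membrane by the sodium-potassium ATPase and the NKCC1 cotransporter, a process that needs many mitochondria, and those folds interlock with the processes of intermediate cells. Malat1 is a long noncoding RNA that stays in the nucleus, and mRNAs for membrane and secreted proteins are translated on the endoplasmic reticulum (ER), whereas mRNAs for cytosolic proteins are translated on free ribosomes.

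These barcodes were 4.76% of the 378 barcodes with at least 200 genes in capture 1 (95% exact binomial interval 2.85 to 7.42), 7.07% of 1329 in capture 2 (5.75 to 8.59) and 3.11% of 1481 in capture 3 (2.28 to 4.12). The intervals cover counting error only. Among all barcodes with marginal RNA by the same rule on Kcne1, those with little Malat1 made up 58.1% of 31, 64.8% of 145 and 65.7% of 70 (95% exact binomial intervals 39.1 to 75.5, 56.5 to 72.6 and 53.4 to 76.7). The interval of capture 1 includes 50%. The other 88 barcodes with marginal RNA, with Malat1 at or over 0.7%, are called Malat1-containing marginal barcodes and served as the comparison. A further 628 barcodes under the limit held intermediate cell RNA, with at least 3 UMIs of Met, Kcnj13, Nrp2 and Mlana together and fewer of Kcne1, and 770 held neither.

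The Malat1 limit was mostly far from the values of the members. Malat1 had 0 UMIs in 53 of the 158 barcodes, 1 in 51, 2 in 27 and 3 or more in 27. In 148 barcodes it was under 0.1% of UMIs, and only 4 lay between 0.35% and 0.7%. The highest share inside the limit was 0.643% and the lowest outside it was 0.709%, with 30 marginal barcodes between 0.7% and 1.4% and 58 at 1.4% or over. The limit on Kcne1 was closer to the members, since 36 barcodes had exactly 3 UMIs of it and 27 had 1 UMI more of it than of the 4 intermediate genes. Just outside, 49 low-Malat1 barcodes had 2 UMIs of Kcne1 and 23 had as many as of the intermediate genes. The median Kcne1 count was 5 UMIs in each capture, against 25, 15 and 13 UMIs in the Malat1-containing marginal barcodes.

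Mitochondrially encoded RNA made up close to as much of the members as all other RNA together. Its median share of UMIs was 45.5% in capture 1, 49.7% in capture 2 and 46.6% in capture 3. The Malat1-containing marginal barcodes had medians of 21.1%, 28.2% and 21.0%, so that no capture of one set overlapped the other. The share was higher by 23.9 ± 2.09 percentage points (SD, n = 3 captures), in 3 of 3 captures, with p = 0.25 in an exact two-sided sign permutation test over captures, the smallest p that 3 captures allow. Because Malat1 was counted as a share of all UMIs, a high mitochondrial share lowers it by construction. With Malat1 taken as a share of the UMIs that are not mitochondrial, 156 of the 158 remained.

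**Figure D1:**
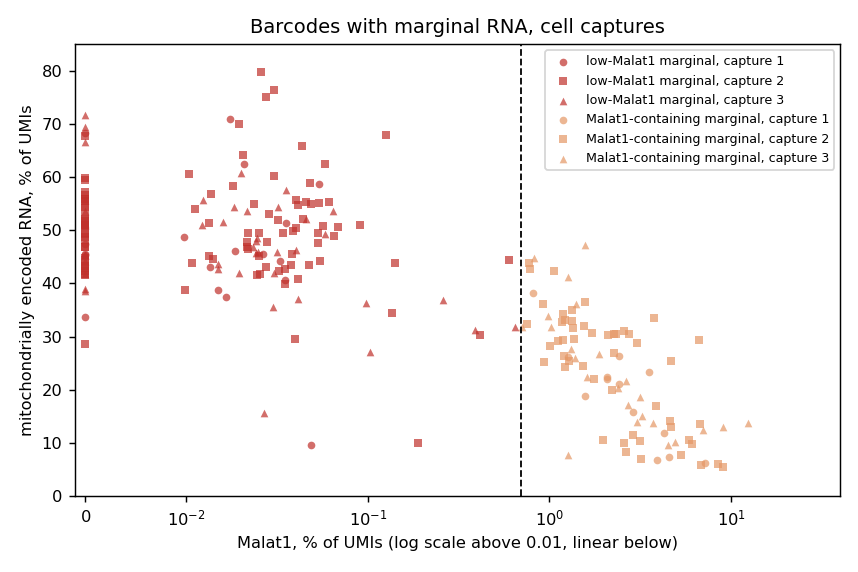
Malat1 share of UMIs (x axis, log scale above 0.01% and linear below) and share of mitochondrially encoded RNA (y axis, % of UMIs) in the 246 barcodes with marginal RNA, 1 point per barcode, with colour for the set, marker shape for the capture and a dashed line at 0.7%. Most of the 158 barcodes under the limit sit between 40% and 60% mitochondrial RNA, and 34 of the 88 over it sit under 20%.

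Among the 158, the share ran from 9.63% to 79.8%. It was from 40% to 60% in 119 barcodes, over 60% in 18, from 20% to 40% in 18 and under 20% in 3, and 88 barcodes exceeded the highest Malat1-containing marginal barcode, at 47.2%. Low-Malat1 barcodes of other kinds were also rich in mitochondrial RNA. The medians were 45.6%, 54.1% and 59.8% in those with intermediate RNA and 61.6%, 60.8% and 68.4% in those with neither, and the intermediate set of capture 1 was within 0.1 points of the members.

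The members held fewer UMIs than the comparison, with a median of 5343.5 against 10804 per barcode, and 3960 in low-Malat1 intermediate barcodes. They also held fewer kinds of transcript at equal depth. After each barcode was thinned to 1000 UMIs, the median number of genes was 405, 375 and 392 in the members and 598, 541 and 555.5 in the Malat1-containing marginal barcodes (p = 0.25 in the exact sign permutation test, the smallest possible). When only UMIs that are not mitochondrial were thinned to 1000, which left out 13 members with fewer, the medians were 633, 639 and 635 against 705, 693 and 691.5. The gap shrank with the mitochondrial UMIs set aside but kept its direction in each capture.

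The label of marginal RNA was described with genes that the rule did not use. The low-Malat1 barcodes with neither kind of RNA were set apart by Kcne1 as well. Genes that go with Kcne1 are therefore lower there by the choice of barcodes, and the levels below are no independent check. Beside Kcne1, the other 11 marginal markers had UMIs, though Bsnd had 6 UMIs in 5 barcodes. Mt3, a brain-type metallothionein that binds zinc and copper, was at 3216, 3381 and 3347 CPM (UMIs scaled to a total of 1000000) in captures 1 to 3, and at 989, 1439 and 1118 CPM in the low-Malat1 barcodes with neither kind of RNA. The members lay above those barcodes in each capture. Itpr1, the calcium release channel of the ER that opens to inositol trisphosphate, was at 639, 805 and 905 CPM against 290, 337 and 285. Atp1b2, described below, was at 849, 1008 and 1394 CPM against 147, 248 and 133, and Heyl, a repressor of the Notch pathway with 33 UMIs, at 19.98, 44.95 and 29.4 against 0, 7.22 and 4.76.

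RNA of intermediate cells was present as well. Dct, a melanin synthesis enzyme, was at 4794, 2840 and 2030 CPM in the members, at 3586, 3484 and 1922 in the Malat1-containing marginal barcodes and at 11655, 7696 and 5888 in low-Malat1 intermediate barcodes. In the low-Malat1 barcodes with neither, Dct was at 5029, 4145 and 2743 CPM, above the members in each capture. Over the whole list of 15 intermediate markers, 13 had UMIs in the members and Tyrp1 and Pmel were at 0. The list took 2.04%, 2.06% and 2.25% of UMIs, of which Ptgds, a prostaglandin synthase, gave 14062 of 18703 UMIs. Although on the intermediate list, Ptgds was at 12475, 15297 and 18338 CPM in the members and 27434, 20080 and 20942 CPM in the Malat1-containing marginal barcodes, against 8183, 8496 and 5953 CPM in the low-Malat1 intermediate barcodes. The sets with marginal RNA thus lay above the low-Malat1 intermediate barcodes in each capture, and the UMIs of Ptgds are not counted here as intermediate RNA. The part of this RNA in the results was not tested beyond leaving out the barcodes rich in it, which kept 146 members (limit of 1% on the list without Ptgds).

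Markers of macrophages, pericytes, endothelial cells, B cells and neutrophils were at 15 UMIs or fewer per list. Of 9 macrophage markers 3 had UMIs, 7 UMIs in all, with Cx3cr1, Csf1r, C1qa, C1qb, C1qc and Cd68 at 0 and Lyz2 the most abundant at 3 UMIs. Of 6 pericyte markers only Cspg4 had a UMI, and of 7 endothelial markers only Egfl7, with 2 UMIs. A count of 0 allows up to 3 of the 883667 UMIs of the members. B cell markers gave 1 UMI, and the neutrophil list gave 15, of which S100a8 held 8. The 7 erythroid genes, 2 of which are in the rule, took 0.0170%, 0.0313% and 0.177% of UMIs in the members and 0.0161%, 0.0307% and 0.198% in the Malat1-containing marginal barcodes, so that the captures differed far more than the sets. Fibrocyte genes gave 37 UMIs, 21 of them from Otos, which was called higher in the members with a log2 fold change of 1.31 ± 0.50 (edgeR, adjusted p = 0.048) and lost the call without capture 2 and without capture 3. Its part in the results was not tested. The Schwann list gave 91 UMIs, of which Sox10, also a gene of intermediate cells, held 49.

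The basal and the spindle/root lists differed between the sets. In the members the 8 basal markers took 0.0270%, 0.0373% and 0.0291% of UMIs, with Sox8 and Tbx18 at 0 and Gjb6 the most abundant, and the 6 spindle/root markers took 0.00400%, 0.00176% and 0.00184%, with P2rx2, Kcnj16 and Lgr5 at 0. In the Malat1-containing marginal barcodes the shares were 0.294%, 0.127% and 0.0918% for basal markers and 0.0511%, 0.0445% and 0.0959% for spindle/root markers. Of the 483 UMIs of Anxa1, a spindle/root marker, 422 were in 5 of the 88 barcodes, whereas the 586 UMIs of the basal marker Cldn11 were spread over 67 barcodes, with 293 in the 5 highest. Both lists together passed 0.2% of UMIs in 14 of the 88 and in none of the 158, and the comparison was also run without those 14 (called the reduced comparison).

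By number of UMIs, which are counts of transcript ends and not levels per length, mt-Atp6, mt-Co3, mt-Co1, mt-Nd1, mt-Co2, mt-Cytb, mt-Nd4 and mt-Nd2 led the members. Ptgds followed, at 15370 ± 2932 CPM (SD, n = 3), and Fth1, the ferritin heavy chain, at 13846 ± 1436. S100a1, a small calcium-binding protein, was at 4662 ± 543 CPM against a mean of 3718 in the Malat1-containing marginal barcodes. Dclk1, a kinase that binds microtubules, was at 3663 ± 389 against 4150. Spp1, which encodes the secreted protein osteopontin, was at 2537, 3475 and 7293 CPM against a mean of 12490. S100a1 and Dclk1 thus stayed close to the level of the comparison in total UMIs, whereas Spp1 was lower in each capture.

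To ask which transcripts other than those of the rule were higher or lower, UMIs were summed per capture and set. In edgeR, 6361 genes were tested between the members and the Malat1-containing marginal barcodes. By the quasi-likelihood test of edgeR, with p-values adjusted after Benjamini and Hochberg, 709 genes were higher in the members, which is 11.1% of the genes tested, and 691 were lower, which is 10.9%. Malat1 split the barcodes of the same suspensions, so the comparison is between sets cut by a measured value and not between conditions, and genes that vary with Malat1 move with the split. The fold changes are relative to TMM, which sets most genes near 0 and gave a median of -0.11 on the log2 scale. With totals alone as the scale, the median moved by -0.69 and the split became 100 higher and 2616 lower. Counts of calls per total UMI in the lists below stand beside these 2616 lower and 100 higher of the 6361 genes. With mitochondrial genes removed before TMM the split was 689 and 680. With each barcode thinned to 1000 UMIs, which also sets aside the difference in depth, it was 83 and 136. A change is therefore reported relative to other genes, and of the 709 genes called higher, 554 were also above 0 per total UMI. The paper raises RNA released into the suspension as a possible admixture in its cell data. The part of such RNA in these changes was not tested.

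RNAs that stay in the nucleus, other than Malat1, were lower where they could be tested. Of the 11 nuclear RNAs listed, 3 passed the filter on low counts and each of the 3 was lower. Xist, which coats the inactive X chromosome (chromosome X, 103460366 to 103483254 in mm10), had 0, 9.77 and 14.7 CPM in the members and 188, 290 and 441 CPM in the comparison, without overlap between the sets. Its log2 fold change was -4.30 ± 0.32 (SE; edgeR, Benjamini-Hochberg adjusted p = 6.17e-19). Xist overlaps Tsix and Gm26992 on the other strand, and reads of these genes cannot be told apart if strand was not used in counting. Neat1, the RNA that builds paraspeckles, had 49.9, 54.7 and 77.2 CPM against 720, 412 and 549, a log2 fold change of -2.35 ± 0.27. Kcnq1ot1, an antisense RNA within Kcnq1 (chromosome 7, 143203458 to 143296549), had 1 UMI in the members and 92 in the comparison, which is 83.4-fold lower per UMI with a 95% counting interval of 14.6 to 3331. Its reads and those of Kcnq1 on the other strand cannot be told apart if strand was not used in counting. Of the listed RNAs that failed the filter, Meg3, Miat, Mirg and Snhg11 were at 0 in the members.

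mRNAs of splicing factors and speckle proteins, many of which keep introns and stay in the nucleus, were lower too. Of 20 listed, 15 fell, none rose and 5 did not pass the test, with a median log2 fold change of -1.31 against -0.11 over all genes tested. Ogt, which adds sugar groups to nuclear and cytosolic proteins and has a retained intron, had 29.96, 15.6 and 36.8 CPM against 279.6, 346 and 342, a log2 fold change of -3.10 ± 0.25. Srrm2, a scaffold of speckles, changed by -2.28 ± 0.26 and Clk1, a kinase of splicing factors, by -3.01 ± 0.54. The list took 0.0649%, 0.0846% and 0.109% of UMIs in the members and 0.333%, 0.332% and 0.380% in the comparison, and the captures of the sets did not overlap. Srsf7, Srsf11, Ddx17, Luc7l2 and Tra2b were below 0 without passing the test.

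Immediate-early transcripts, which are made in bursts and decay quickly, were lower as well. Of 19 listed, 7 could be tested, and Jun, Jund, Ier2, Dusp1 and Klf6 fell, of which Ier2 lost significance without capture 1 and without capture 3, and Klf6 without capture 1 and without capture 2. Jund, the most abundant of them, changed by -0.94 ± 0.18 and Dusp1, a phosphatase of MAP kinases, by -1.96 ± 0.38. The list took 0.0260%, 0.0219% and 0.0217% of UMIs against 0.124%, 0.0728% and 0.0954%. Fos, Fosb, Egr2, Ier5 and Socs3 had 0 UMIs in the members.

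Each of the 13 mitochondrially encoded mRNAs rose, by 1.42 to 1.78 on the log2 scale, and this held also per total UMI, where the median was 1.03. mt-Atp6, a subunit of ATP synthase, was at 97882, 112767 and 108275 CPM against 40288, 59168 and 49800. Transcripts for respiratory chain proteins made in the cytosol rose with them relative to TMM. Of 85 nuclear-encoded respiratory chain genes, 78 could be tested, 65 rose and none fell, with a median of 0.75. Per total UMI their median was 0.07, with 9 called higher and 3 lower, so their rise is relative to other mRNAs of nuclear genes. Among the UMIs that are not mitochondrial, they took 8.48%, 9.33% and 8.30% in the members and 5.13%, 5.66% and 5.40% in the comparison. Cox8b, a subunit of cytochrome oxidase, had the largest change of the list, at 1.34 ± 0.10.

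Transcripts of the translation machinery showed the same. Of 84 cytosolic ribosomal protein genes, 81 could be tested, 79 rose and none fell, with a median of 0.79, from 0.39 to 1.13. Their share of UMIs that are not mitochondrial was 14.3%, 13.6% and 12.7% against 8.51%, 8.52% and 8.39%. Per total UMI their median was 0.11, with 19 called higher and none lower. Of 14 translation factors, 10 rose and none fell, led by Eef1g, a subunit of the factor that brings tRNAs to the ribosome, at 1.01 ± 0.16. Per total UMI the median of the 14 was -0.08, with none called higher and 2 lower, so their direction flips with the scale. Tpt1, a TOP mRNA like those of ribosomal proteins, was at 0.60 ± 0.10 and turned to -0.06. Of 11 heat shock genes, 10 could be tested. Hspa8, Hsp90aa1, Hsp90ab1 and Hspe1, cytosolic and mitochondrial chaperones, rose by 0.60 to 0.84 relative to TMM, but per total UMI none of the 10 was called higher, 3 were lower and Hsp90aa1, Hsp90ab1 and Hspe1 turned below 0. Hspe1 also lost significance without capture 2. The stress-induced Hspa1b was at -1.05 ± 0.70 and did not pass the test.

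**Figure D2:**
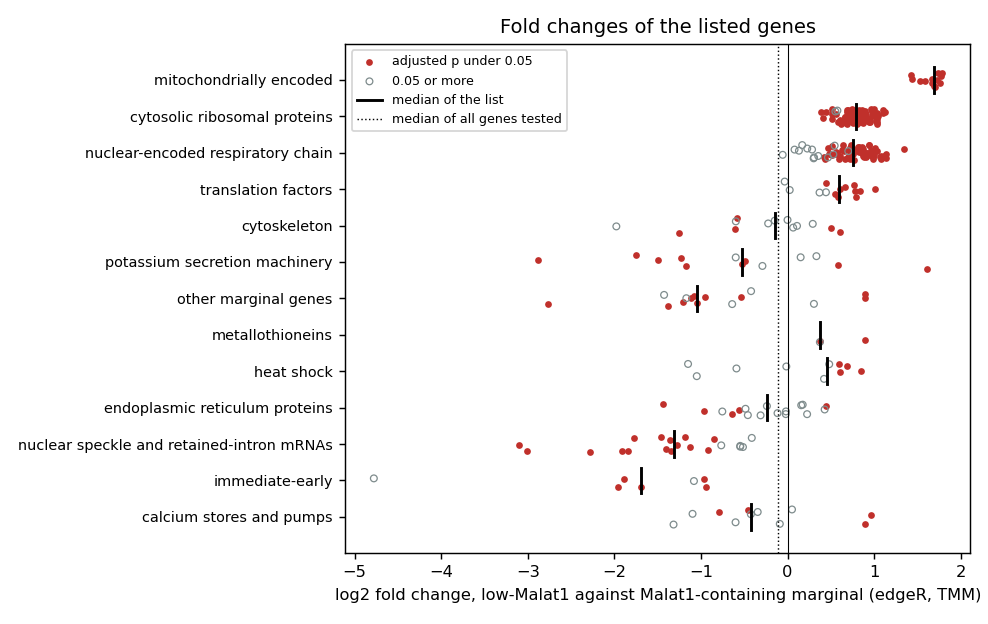
Log2 fold change between low-Malat1 and Malat1-containing marginal barcodes (x axis, edgeR with TMM) for each tested gene of 13 lists (rows), with filled points for an adjusted p under 0.05, open points for the rest, a bar at the median of the list and a dotted line at the median of all 6361 genes. Mitochondrially encoded, ribosomal protein and respiratory chain genes lie to the right, and speckle and immediate-early genes to the left.

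Several genes of potassium secretion were lower. Of 15 listed genes, with Kcne1 in the rule, 13 were tested, and 7 fell and 2 rose, with a median of -0.53. Per total UMI 11 were called lower and none higher, with a median of -1.19. On that scale lower calls far outnumbered higher ones over all genes too, and the median of all genes moved by -0.69. The list took 0.725%, 0.833% and 1.09% of UMIs against 1.97%, 1.94% and 2.22%, and 1.36%, 1.65% and 2.01% of the UMIs that are not mitochondrial against 2.48%, 2.65% and 2.87%. The sets did not overlap on either scale. The list holds Kcne1, which the rule used, so these shares are a description only.

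Kcnq1, the pore of the apical channel (chromosome 7, 143106362 to 143427042), was at 59.9, 99.7 and 169 CPM in the members and at 505, 330 and 531 CPM in the comparison. Its log2 fold change was -1.17 ± 0.19 (edgeR, adjusted p = 9.75e-07). Slc12a2, which encodes NKCC1, was at 2197, 3113 and 4605 CPM against 6193, 7229 and 8443, with a log2 fold change of -0.49 ± 0.12 that lost significance without capture 1 and without capture 2. The members lay below the comparison in each capture for both genes, without overlap.

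The beta subunits of the sodium-potassium ATPase differed from each other in their values. Atp1b2, the beta subunit of marginal cells (chromosome 11, 69599736 to 69605942), was at 849, 1008 and 1394 CPM against 4801, 4351 and 5648, and fell by 1.49 ± 0.11 on the log2 scale (edgeR, adjusted p = 3.19e-18). Atp1b1, the beta subunit that is higher in intermediate barcodes, was at 949, 879 and 831 CPM against 1446, 1452 and 918, with a fold change of 0.15 ± 0.11 that did not pass the test and turned to -0.51 per total UMI. Atp1b3 was at 0.33 ± 0.14, also without passing, and turned to -0.34 per total UMI.

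Bsnd, the barttin subunit of the chloride channels (chromosome 4, 106483456 to 106492283), had 6 UMIs in the members, at 9.99, 7.82 and 3.68 CPM, against 96.8, 70.7 and 94.5 CPM, a log2 fold change of -2.88 ± 0.51 (edgeR, adjusted p = 4.86e-06). The captures of the sets did not overlap, and Nedd4l, a ubiquitin ligase of ion channels, fell as well, by 1.75 ± 0.64. The 2 that rose were kinases of the cytosol, Wnk1 at 0.58 ± 0.19 and Oxsr1, which activates NKCC1, at 1.61 ± 0.41. Per total UMI Wnk1 turned to -0.11, and Oxsr1 was at 0.91 and did not pass the test. Without capture 2, which held 94 of the 158 barcodes, neither kinase passed the test. Nedd4l failed it whichever of the 3 captures was left out, and Wnk1 also without capture 3.

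**Figure D3:**
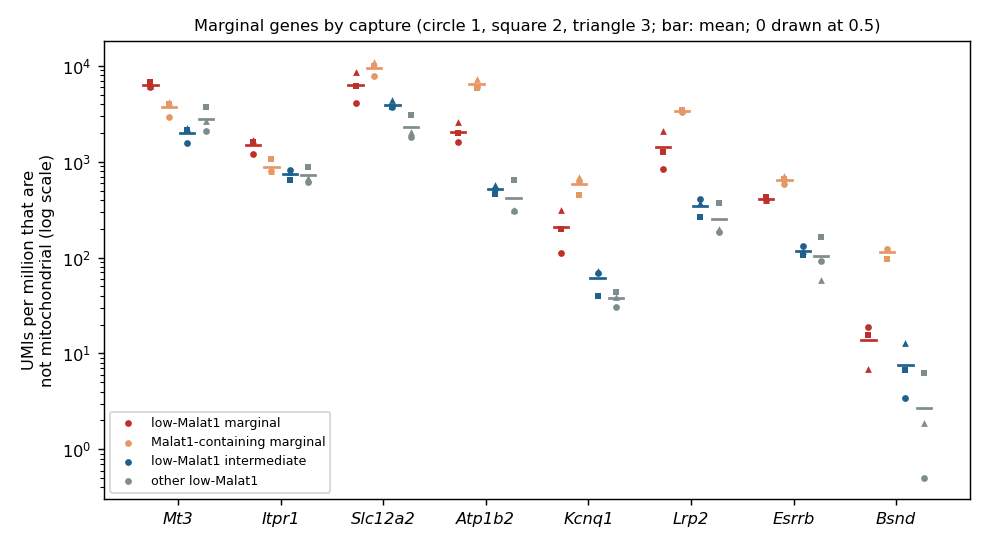
Levels of 8 marginal genes (x axis) in 4 sets of barcodes (colours), as CPM of the UMIs that are not mitochondrial (y axis, log scale), with 1 point per capture (circle 1, square 2, triangle 3), a bar at the mean and a level of 0 drawn at 0.5. For Mt3 and Itpr1 the low-Malat1 marginal barcodes are the highest set, whereas for Atp1b2, Kcnq1, Lrp2 and Esrrb they lie between the Malat1-containing marginal and the other low-Malat1 barcodes.

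Of 16 other marginal genes, 15 were tested, and 8 fell and 2 rose, with a median of -1.05. Per total UMI 11 were called lower and none higher, with a median of -1.76. Over all genes lower calls also far outnumbered higher ones on that scale, and the median moved by -0.69. The 2 that rose were Mt3 (chromosome 8, 94152607 to 94154146) and Itpr1 (chromosome 6, 108213096 to 108551109). Mt3 was at 3216, 3381 and 3347 CPM against 2333, 2945 and 3231, and its log2 fold change was 0.90 ± 0.10 (edgeR, adjusted p = 6.88e-12). Itpr1 was at 639, 805 and 905 CPM against 629, 783 and 612, with a log2 fold change of 0.89 ± 0.13 (edgeR, adjusted p = 5.84e-08). In CPM the members were higher in 3 of 3 captures for both genes, but per total UMI neither passed the test, with log2 fold changes of 0.23 for Mt3 and 0.22 for Itpr1.

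The genes that fell encode a receptor, transporters and regulators. Lrp2, the endocytic receptor megalin, was at 449, 639 and 1136 CPM against 2618, 2519 and 2700, with a log2 fold change of -1.11 ± 0.28. Abcg1, which exports cholesterol, changed by -1.38 ± 0.27, Atp13a5, a P-type ATPase, by -1.08 ± 0.26, and Slc6a17, an amino acid transporter, by -2.76 ± 0.62. Esrrb, a nuclear receptor that controls genes of endolymph secretion, was at 210, 213 and 213 CPM against 462, 486 and 545, and changed by -0.53 ± 0.15. Heyl, Tacr3 and Shroom3 fell by 0.96 to 1.20. Lrp2, Abcg1, Tacr3 and Shroom3 lost significance without capture 2, and Esrrb, Heyl, Tacr3 and Shroom3 without capture 3. Mt3 held 2962 of the list's 4833 UMIs in the members, and the share of the list among UMIs that are not mitochondrial did not separate the sets, at 0.879%, 1.06% and 1.11% against 0.884%, 1.06% and 1.05%.

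Few other genes of metal binding and calcium handling were called. Of the 3 metallothioneins, Mt3 and Mt1 rose, Mt1 by 0.37 ± 0.11, and Mt2 was at 0.37 ± 0.54. Mt1 turned to -0.30 per total UMI, where none of the 3 was called higher and 1 was lower. Of 17 genes of calcium stores and pumps, 11 were tested, with Itpr1 and the calmodulin gene Calm3 higher, the latter by 0.96 ± 0.19, and Atp2a2, the pump that fills the ER store, lower, with a change of -0.79 ± 0.30. Atp2b1, a plasma membrane calcium pump, changed by -0.45 ± 0.14. The 2 higher and 2 lower calls among the 11 stand beside 11.1% higher and 10.9% lower over all genes. They are not read as a change of the list. Atp2a2 lost significance without capture 1 and without capture 2, and Atp2b1 without capture 2 and without capture 3. Per total UMI 8 of the 11 were called lower and none higher. Lower calls far outnumbered higher ones over all genes on that scale, where the median moved by -0.69. Itpr1 and Calm3, the latter at 0.29, did not pass the test there. The ryanodine receptor genes Ryr1, Ryr2 and Ryr3 were at 0 in the members.

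Of 17 genes for proteins of the ER, 4 fell and 1 rose, with a median of -0.24 against -0.11 over all genes, and 12 did not pass the test. Per total UMI, where lower calls far outnumbered higher ones over all genes, 13 of the 17 were called lower and none higher. Their median was -0.93, where the median of all genes moved by -0.69 from -0.11. Hspa5, the ER chaperone BiP, changed by -0.64 ± 0.17, Calr, which holds calcium in the ER, by -0.56 ± 0.16, P4hb by -0.97 ± 0.33 and Sec61a1, the pore through which new proteins enter, by -1.44 ± 0.36. Sec61g, a small subunit of that pore, was higher, at 0.45 ± 0.16, and turned to -0.24 per total UMI. Hspa5 lost significance without capture 1 and without capture 2, Calr and Sec61g without capture 2, and P4hb without capture 2 and without capture 3. Of 14 cytoskeleton genes, 13 were tested, with 2 higher and 3 lower, beside 11.1% higher and 10.9% lower over all genes. Per total UMI none was higher and 9 were lower, where lower calls also prevailed over all genes and their median moved by -0.69. Neither count is read as a change of the list. The actin genes Actb and Actg1 fell by 0.59 ± 0.11 and 0.61 ± 0.12, Tmsb4x, which binds free actin, rose by 0.50 ± 0.10 and the myosin light chain Myl6 by 0.60 ± 0.14. Per total UMI Tmsb4x turned to -0.17 and Myl6 to -0.08, and Myl6 lost significance without capture 2. The keratin Krt8 changed by -1.26 ± 0.40, and 50 of its 73 UMIs in the comparison were in 5 barcodes. In the reduced comparison Krt8 turned to 0.31 and did not pass the test, and it lost significance without capture 2 and without capture 3.

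**Figure D4:**
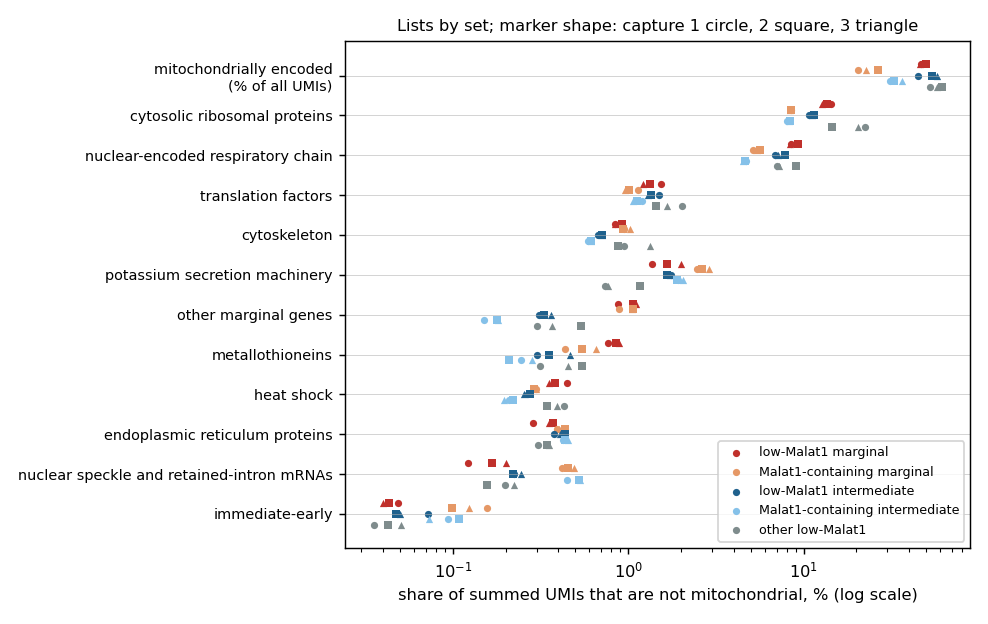
Share of 12 gene lists (rows) in the summed UMIs that are not mitochondrial (x axis, %, log scale; the first row is a share of all UMIs), in 5 sets of barcodes (colours) with 1 point per capture (circle 1, square 2, triangle 3). The low-Malat1 marginal barcodes lie right of the Malat1-containing ones for ribosomal protein and respiratory chain genes, left of them for potassium secretion, speckle and immediate-early genes, and at the same place for the other marginal genes.

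Of the single genes with the largest changes, 8 of the 10 highest were mitochondrially encoded. The other 2 were Zfp367, a zinc finger protein, at 39.95, 60.6 and 51.5 CPM against 16.1, 30.03 and 9.001, and Lgi4, a secreted protein that acts in myelination, at 110, 66.5 and 58.8 CPM against 32.3, 33.6 and 40.5. Their log2 fold changes were 1.96 ± 0.38 and 1.68 ± 0.31. Lgi4 overlaps Fxyd3 on the opposite strand.

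Of the 10 lowest, Kcnq1ot1 and Xist are nuclear RNAs. Pde4d, a phosphodiesterase of cyclic AMP, had 2 UMIs against 71, Per3, a clock gene, 2 against 52, Apbb2 3 against 51 and Pabpn1, which binds poly(A) tails in the nucleus, 6 against 108. Per UMI, Pde4d was 32.2-fold lower (95% counting interval 8.59 to 271), Per3 23.6-fold (6.21 to 200) and Apbb2 15.4-fold (4.99 to 77.2). Their UMIs in the comparison were spread over 44, 33 and 37 of the 88 barcodes.

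Anxa1, Cd24a and Fat2, also among the 10, came from few barcodes of the comparison. The 5 highest barcodes held 87.4% of Anxa1, 80% of Cd24a and 84.3% of Fat2 UMIs. In the reduced comparison, chosen after seeing the data, Anxa1 was at -1.03 (edgeR, adjusted p = 0.735), Fat2 turned to 1.95 (adjusted p = 0.377) and Cd24a no longer passed the filter. Pde4d, Per3, Apbb2 and Pabpn1 kept their calls there, and the totals were 673 genes higher and 636 lower.

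A measure that orders genes from cells to nuclei was taken from barcodes outside the members and their comparison, chosen by Malat1, Kcne1, the 4 intermediate genes and hemoglobin. The nuclear index is the log2 ratio of a gene's share between 1857 intermediate nuclei and 1223 Malat1-containing intermediate cells, mitochondrially encoded genes left out, and was available for 6141 of the genes tested. The 2047 genes with the lowest index, from -8.55 to -0.79, had a median log2 fold change of 0.11 in the members, with 19.5% called higher and 7.52% lower. The 2047 genes in the middle had a median of -0.11, with 9.38% and 8.84%. The 2047 genes with the highest index, from 0.09 to 6.55, had a median of -0.41, with 3.57% higher and 16.2% lower. The 3 groups also differed in abundance, with median levels of 5.76, 5.09 and 4.71 log2 CPM, and the part of this in the result was not tested. Genes with a higher index thus tended to be lower in the members, with a Spearman rho of -0.26 across genes. The genes share libraries and are not independent replicates, the intermediate cells come from the same captures as the members, and the nuclei are from 1 library without a replicate. Nuclei and cells were also prepared by different protocols, and the part of this in the index was not tested.

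**Figure D5:**
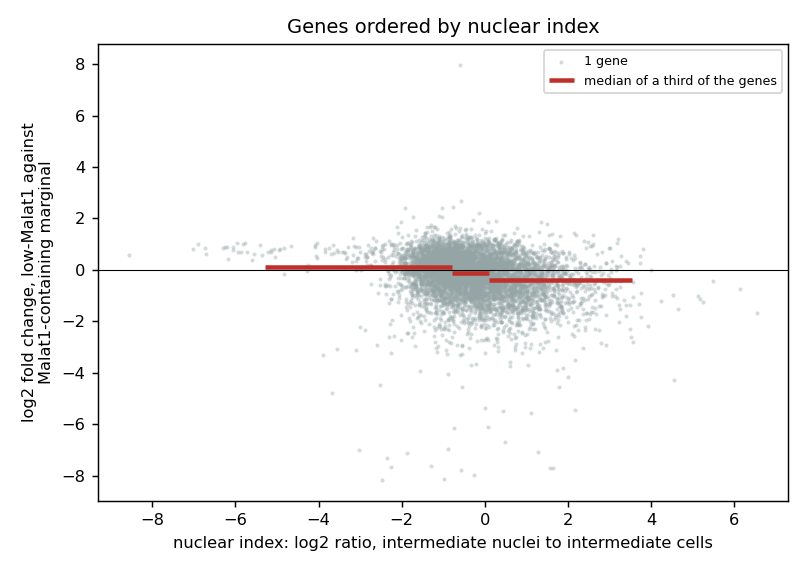
Nuclear index (x axis, log2 ratio of intermediate nuclei to intermediate cells) and log2 fold change between low-Malat1 and Malat1-containing marginal barcodes (y axis) for 6141 genes, 1 point per gene, with a bar at the median of each of 3 groups of 2047 genes. The bars step down from 0.11 to -0.11 and -0.41, and single genes scatter widely around them.

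The lists did not all follow that order. Ribosomal protein genes had a median index of -3.02 and rose, but genes for ER proteins had a low index too, -1.10 over 16 genes, and a median log2 fold change of -0.28 in those. The 7 immediate-early genes had a median index of -1.20 and a median log2 fold change of -1.69. Marginal genes are low in the intermediate barcodes from which the index was taken, and their indices are not read here.

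Next, the members were compared with the low-Malat1 intermediate barcodes, from the same captures and also under the Malat1 limit. The rule used Kcne1 and 4 intermediate genes here, so that marginal genes are higher and intermediate genes lower by the choice of barcodes. By the same test, 546 genes were higher, which is 8.58% of the 6361 tested, and 657 were lower, which is 10.3%. With totals alone as the scale the median log2 fold change moved by 0.18, and 819 genes were higher and 433 lower. Of the 15 other marginal genes tested, 13 rose and none fell. Mt3 was at 3216, 3381 and 3347 CPM against 859, 989 and 951, a log2 fold change of 1.63 ± 0.10, and Atp1b2 at 849, 1008 and 1394 against 286, 211 and 241, a log2 fold change of 1.98 ± 0.12. Kcnq1 was higher by 1.95 ± 0.25. Bsnd, with 6 UMIs in the members, was at 0.69 ± 0.78 and did not pass, and Atp1b1 and Atp1b3 were lower, with changes of -1.85 and -1.28.

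Of the 9 intermediate markers tested, 8 fell and Ptgds rose. Dct changed by -1.61 ± 0.11, Tyr by -2.01 ± 0.21, the potassium channel gene Kcnj10 by -1.45 ± 0.19 and Gsta4 by -1.39 ± 0.10. Ptgds was at 12475, 15297 and 18338 CPM against 8183, 8496 and 5953. The sets did not overlap in this gene, which lost significance without capture 2 and was also the most abundant intermediate marker in the members.

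The 10 genes highest over the low-Malat1 intermediate barcodes were Epn3, Tnfrsf21, Car12, Ptger3, Rgcc, Dnase1, Mal, Tacr3, Steap2 and Hmx2, at log2 fold changes of 2.22 to 2.89. Epn3, an epsin of endocytosis, was at 49.9, 46.9 and 69.9 CPM against 15.2, 3.85 and 5.46. Dnase1, a secreted nuclease, was at 1348, 1532 and 2678 CPM against 316, 336 and 300, with 1647 UMIs in the members. Car12 is a membrane carbonic anhydrase and Hmx2 a homeobox factor of the inner ear. Dnase1 and Steap2 lost significance without capture 2.

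The 10 lowest were Hes1, Slc16a6, Igsf8, Wnt5b, Pla2g2e, Mageh1, Xist, Auts2, Kcnn4 and Id4. Hes1, a repressor driven by Notch, had 0 UMIs in the members and 56 in the intermediate barcodes, which is at least 5.64-fold lower for a limit of 3 UMIs over the set. Kcnn4, a calcium-activated potassium channel, was at 9.99, 11.7 and 3.68 CPM against 105, 44.7 and 60.04. Xist, though both sets lay under the same Malat1 limit, was at 0, 9.77 and 14.7 CPM against 53.4, 46.2 and 105, a log2 fold change of -2.98 ± 0.36.

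Ribosomal protein genes were higher in the members for 32 of 81 and lower for none, with a median of 0.27, and respiratory chain genes for 22 of 78, with Cox8b lower, and a median of 0.26. Cox7a1, a subunit of cytochrome oxidase, was higher by 1.39 ± 0.12. The mitochondrially encoded mRNAs were lower for 8 of 13, by at most 0.40 on the log2 scale. Of the speckle genes 6 of 20 fell and none rose, and of the immediate-early genes none of 7 passed. Per total UMI no speckle gene and no mitochondrially encoded mRNA passed, with medians of -0.26 and -0.11, whereas 69 ribosomal protein and 56 respiratory chain genes were higher. The 4 heat shock genes that rose were Hspa8, Hsp90aa1, Hsp90ab1 and Hsph1, of which Hsph1 lost significance whichever of the 3 captures was left out.

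Finally, the fold change between low-Malat1 and Malat1-containing barcodes was compared between marginal and intermediate RNA, as an interaction in the same fit. By the same test, 40 genes had a more positive change in marginal barcodes, 0.629% of the 6361 tested, and 88 a more negative one, 1.38%. With totals alone as the scale these were 13 and 97. Genes of the potassium secretion list had 1 of the former, Atp1b1, and 5 of the latter, Kcnq1, Slc12a2, Atp1b2, Bsnd and Stk39, of which Atp1b1 and Slc12a2 did not pass per total UMI. Atp1b2 had the clearest difference, at -1.56 ± 0.16. Kcnq1, Bsnd and Atp1b2 are at low levels in intermediate barcodes, where a change in them is a change in that low level. Of the 9 intermediate markers tested, Dct, Gsta4 and Gpnmb had a more positive change in marginal barcodes, by 1.12 ± 0.16, 0.94 ± 0.14 and 0.69 ± 0.17, and Gpnmb did not pass per total UMI. Of the 20 speckle genes none passed. Of 81 ribosomal protein genes 3 did and of 13 mitochondrially encoded mRNAs 1 did (none of either per total UMI). The others did not pass, though relative to TMM 80 of the 81 and 13 of the 13 lay above 0, against 7 of the 20 speckle genes. The median of all genes was -0.07. Genes of a list share the same sums and scale, so these counts are a description and no test. Without the replicate block 46 genes in all passed in place of 128. Of the potassium secretion genes and intermediate markers named here, Atp1b1, Slc12a2, Stk39, Dct and Gpnmb were not among these.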

How the data were processed

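The deposited values are raw counts of UMIs per gene and barcode, integers without normalization; the authors prepared 10x Genomics libraries and counted UMIs with Cell Ranger 2.0.0 on mm10, per the submitters' processing notes. The deposited barcodes of each capture, before aggregation, were used as they stand, and no column of sample values was left unused. Members, comparison sets and gene lists were chosen with earlier results of these data known, so no pattern here is independent support.

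UMIs were summed per capture for low-Malat1 and Malat1-containing barcodes with marginal or intermediate RNA, giving 12 sums of at least 5 barcodes. They were fitted together in edgeR 4.0.16 (R 4.3.3) with TMM, filterByExpr, a robust quasi-likelihood fit and a replicate block for capture. Genes were called at a Benjamini-Hochberg adjusted p under 0.05. The 8 genes of the rule stayed in the totals but were not tested. Sums of 1 capture share a suspension and are paired by it. Deviations from the set means correlated at 0.138 to 0.583 between sums of the same capture (1505 genes). The fit was also run on simulated sums, but the outcome is not given here and is not used as support. Sums held 100120 to 4255810 UMIs, and the smallest, the 18 members of capture 1, is the least precise.

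Genes named beyond the lists were the 10 with the largest and the 10 with the smallest fold change among those called, with the same direction in 3 captures, at least 50 UMIs in both sets together and no gene-model name. Genes with 3 or fewer UMIs in the members are given as ratios of UMIs per total with exact conditional 95% intervals, which cover counting error only. Thinning to 1000 UMIs per barcode used a fixed seed, in Python 3.11.15 with numpy 2.4.6 and scipy 1.17.1. Doublets were scored with the Scrublet function of scanpy 1.11.5, at 0.8% of barcodes for each 1000 in the capture. They marked 33 barcodes, none of them a member, and these were kept in the main analysis. Of the 8 barcode sequences that cell captures share, 1 was a member. Gene positions and overlaps are those of GENCODE vM21 on mm10, found for 99 of the 101 names looked up. Whether counting used strand is not given in the sources used here. Alternatives were DESeq2 1.42.0, no filter, no replicate block, no TMM, mitochondrial genes removed, each capture left out, other limits in the rule and thinned counts. Chosen after seeing the data were the limits on intermediate RNA without Ptgds and on basal and spindle/root RNA. Some genes of the lists are not reported here.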

Additional observations from a re-analysis of the deposited data

Results flagged for a closer look

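Of 350 listed or described genes, 26 had a fold change between low-Malat1 and Malat1-containing barcodes that differed between marginal and intermediate RNA (interaction in edgeR, Benjamini-Hochberg adjusted p under 0.05). Over all 6361 genes tested, 0.629% had a more positive change in marginal barcodes and 1.38% a more negative one. The 350 were picked by list or description and are no sample of all genes. The difference, marginal minus intermediate on the log2 scale, was -1.48 for Kcnq1, -0.61 for Slc12a2, -1.56 for Atp1b2, -3.06 for Bsnd and -0.85 for Stk39, a kinase that activates NKCC1, and 0.57 for Atp1b1. Among other marginal genes it was -1.14 for Esrrb and -1.64 for Abcg1. It was -1.02 for Itpr2, an isoform of the calcium release channel, -0.64 for Actb, -0.58 for Actg1, -2.18 for Xist and -3.03 for Apbb2. It was -1.30 for Mbp, a Schwann marker, and -7.13 for Hes1, which had 0 UMIs in the members, so that its fitted value is no measure of size.

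The difference was positive for mt-Nd4 at 0.54, Cox8b at 0.51, Lgi4 at 1.53 and the ribosomal protein genes Rpl30 at 0.56, Rps21 at 0.54 and Rps7 at 0.54. It was 1.12 for Dct, 0.94 for Gsta4, 0.69 for Gpnmb, 0.55 for Fth1 and 3.42 for the neutrophil marker S100a8, which had 8 UMIs in the members and 1053 of 1060 UMIs of the Malat1-containing intermediate barcodes in capture 3. With totals only 10 of the 26 no longer passed, and 13 to 19 no longer passed when 1 capture was left out. Without the replicate block 19 no longer passed. Atp1b2, Esrrb, Dct and Gsta4 passed with each capture left out, but Dct did not pass without the block. Most marginal genes were low in intermediate barcodes, so their change there is that of a low level.

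In the nucleus capture, from which only intermediate nuclei entered the nuclear index, the same rule found 386 barcodes. Their median was 1891 UMIs, with mitochondrial RNA at 43.8% and Malat1 at 0.319% of UMIs, against 2187 UMIs, 8.41% and 8.91% in the 713 nucleus barcodes with marginal RNA and more Malat1. Ribosomal protein genes took 4.15% of their UMIs that are not mitochondrial, against 1.08%, respiratory chain genes 6.98% against 2.57%, speckle genes 0.198% against 0.625% and potassium secretion genes 2.30% against 2.49%. This is a single library without a replicate, and the difference was not tested. Groups of 3 captures were too small for a search for outlying captures.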

How the results depend on the processing

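The mitochondrial share stayed higher in the members under each alternative. The difference of 23.9 points was 28.8 with the Malat1 limit at 1.4%, 29.9 against barcodes at 1.4% or more and 26.4 without barcodes rich in intermediate RNA other than Ptgds. The difference in genes per barcode was -99.3 at 500 UMIs and -60.8 at 1000 UMIs that are not mitochondrial. The number of members was 89 with at least 5 UMIs of Kcne1, 18 with the whole intermediate list at most 1% of UMIs (2 comparison barcodes were left, so no fit was run) and 64 to 140 with 1 capture left out, lowest without capture 2.

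Against the Malat1-containing marginal barcodes, the genes called higher were 100 with totals only, 83 after thinning and 377 to 689 with 1 capture left out. Those called lower were 2616 with totals only, 136 after thinning, 283 with the Malat1 limit at 1.4%, 449 with at least 5 UMIs of Kcne1 and 286 to 524 with 1 capture left out. Both counts were lowest without capture 2. Against the low-Malat1 intermediate barcodes, the higher calls were 354 with no filter and 231 to 494 with 1 capture left out, and the lower calls were 433 with totals only (beside 819 higher), 434 in DESeq2 and 321 to 532 with 1 capture left out. In the interaction, the 128 calls became 46 without the replicate block and 57 to 71 with 1 capture left out. The replicate block moved no other count of calls by over 1.5 times, with 634 higher and 612 lower without it in the first comparison.

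A gene is counted here as reversed where its sign changed and it passed the test under at least 1 of the 2 settings compared. Among the genes named in the text, those reversed against the Malat1-containing marginal barcodes were Atp1b1 at -0.51, Atp1b3 at -0.34, Wnk1 at -0.11 and Mt1 at -0.30 with totals only. Tpt1 at -0.0577, Hsp90aa1 at -0.0673, Hsp90ab1 at -0.0726, Hspe1 at -0.00137, Sec61g at -0.24, Tmsb4x at -0.17, Myl6 at -0.0790 and Gpnmb at -0.23 also reversed with totals only. Mt1 at -0.17, Sec61g at -0.29, Myl6 at -0.31, Gpnmb at -0.18 and Ptgds at -0.37 reversed after thinning, and Fat2 at 1.95 and Krt8 at 0.31 without barcodes holding basal or spindle/root RNA. With totals only Mt2 at -0.30, Tyr at -0.44 and Ptgds at -0.54 also changed sign, without passing the test on either scale. Thinning leaves fewer UMIs and leaving out a capture leaves fewer sums; the cause of the other changes was not tested. The 18 members of capture 1 limit the precision there, and genes with few UMIs are known only within wide counting intervals.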

Other observations

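Some intermediate cell genes were higher in the members than in the Malat1-containing marginal barcodes, relative to TMM. Gsta4, a glutathione transferase, was at 1049, 899 and 772 CPM against 527, 549 and 369, with a log2 fold change of 1.57 ± 0.11. Dct and Gpnmb, a glycoprotein of melanosomes, changed by 0.72 ± 0.11 and 0.45 ± 0.14, and Tyr did not pass the test. Dct and Gpnmb both lost significance without the replicate block. Per total UMI Dct was at 0.05 without passing the test and Gpnmb turned to -0.23, and Gpnmb lost significance whichever of the 3 captures was left out. None of the 9 intermediate markers tested was lower relative to TMM, but per total UMI only Gsta4 was called higher and Cd44 was called lower, at -0.82. After thinning to 1000 UMIs Ptgds was called lower, at -0.37 (edgeR, adjusted p = 0.0403). The sets did not overlap in Gsta4, whereas Dct and Gpnmb overlapped in CPM.

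Of the 158 members, 3 had mitochondrial RNA under 20%, and each came from another capture. They held 2046, 1592 and 3739 UMIs, with mitochondrial shares of 9.63%, 9.92% and 15.6% and Kcne1 counts of 7, 3 and 16 UMIs. The last of them had Ptgds at 25.6% of its UMIs that are not mitochondrial and ribosomal protein genes at 2.09%, and the others had ribosomal protein genes at 8.98% and 11.6%.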
